A study of Arabidopsis thaliana with 4 samples.

Results

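Transcripts of the alternative respiratory chain of Arabidopsis thaliana were followed for 10 genes, 5 alternative oxidase genes (AOX1A, AOX1B, AOX1C, AOX1D and AOX2) and 5 genes of type II NAD(P)H dehydrogenases (NDA1, NDA2, NDB1, NDB2 and NDB4). They were chosen by locus, as 10 of the 27826 probe sets on the arrays, each probe set being named by 1 locus, and all 10 were found. The list was drawn up with results of the same comparison on these 4 arrays known, so the levels and differences of these 10 genes are a description and carry no test of their own. NDB3 and NDC1, which belong to the dehydrogenase family, were outside the list and are given apart.

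The arrays held RNA of whole rosettes, 4 weeks old and in the Columbia-0 background, taken 10 h into the light period of 12 h days at 22 °C with nights at 18 °C. Stratification was at 4 °C for 2 days for all 4 arrays. There were 2 arrays of wild-type Col-0 and 2 of plants labelled 35S:∆13RAP2.12, which denotes RAP2.12 without its first residues, driven by 35S, a promoter of viral origin that works in nearly every plant tissue. The factor is an ethylene response factor of group VII, a class of activators of low-oxygen genes, and loss of its amino terminus is known to keep the protein from oxygen-dependent breakdown. The labels do not say how many transgenic lines or plants were used, or whether the numbered replicates came from separate plants, so errors measure the spread between these arrays, which may be technical. The design text describes more arrays than these 4, the rest of which were not analysed here.

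The alternative oxidase takes electrons from ubiquinol in the inner mitochondrial membrane and passes them straight to oxygen, which bypasses the proton-pumping complexes III and IV. Type II NAD(P)H dehydrogenases feed electrons into ubiquinone without pumping protons and so bypass complex I. NDA proteins face the mitochondrial matrix and NDB proteins face the space between the membranes, where they use cytosolic NADH or NADPH. In leaves the pathway is known for keeping electron flow going when the cytochrome chain is held back, and AOX1A is a standard readout of signalling from stressed mitochondria to the nucleus.

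Values are RMA expression on a log2 scale, so a step of 1 is a doubling. A probe set was called when limma's adjusted p (Benjamini-Hochberg over all 27826 probe sets) was below 0.05, and differences are the arrays labelled 35S:∆13RAP2.12 minus wild type, with moderated standard errors. All 10 listed hypoxia markers (ADH1, PDC1, HRE2, PGB1, PCO1, PCO2, HRA1, LBD41, SUS1 and SUS4) were called higher, by 2.98 to 5.13. Their list was chosen with earlier results of these data known, so this is no independent check of the label. RAP2.12 itself stood at 11.07 and 11.16 in the wild type and at 11.28 and 11.06 in arrays labelled 35S:∆13RAP2.12, a difference of 0.06 (SE 0.13, limma adjusted p = 0.879), so its level did not bear out the label, and where its probes lie in the transcript is not given here. Of 5 leaf markers, RBCS1A, RCA, PSBO1 and GAPB lay between 12.23 and 13.04 in the mean of either group, while LHCB1.1 read only 4.86 and 4.53. Over 4 root, 4 flower and 4 seed markers, 0 were called, although 1 root marker (PYK10, difference 0.72, limma adjusted p = 0.102) and 1 flower marker (AG, difference -1.10, adjusted p = 0.0690) had an unadjusted p below 0.05. AG was called with repeated quantile normalization, with a filter on low signal and with an intensity trend, and PYK10 with the trend. In RNA of whole rosettes, fewer cells of a type and less RNA per cell cannot be told apart.

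AOX1B was the one member with a large difference, while its neighbour AOX1A and the other 8 genes differed by 0.07 to 0.60 in size. Of the 10 genes, 1 was called higher and 0 lower, against 2.17% of all probe sets called in either direction (1.74% higher and 0.424% lower). The median difference of the 10 was 0.02, beside -0.04 over all probe sets, and 5 differences lay above 0 and 5 below. Their mean was 0.54, most of which comes from AOX1B. Groups of arrays did not overlap for 4 of the 10 genes, as for 48.6% of all probe sets. An unadjusted p below 0.05 was found for the same number, 4 of 10, beside 16.2% of all probe sets. Because the list was made with this comparison known, nothing is read from these counts.

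**Figure D1:**
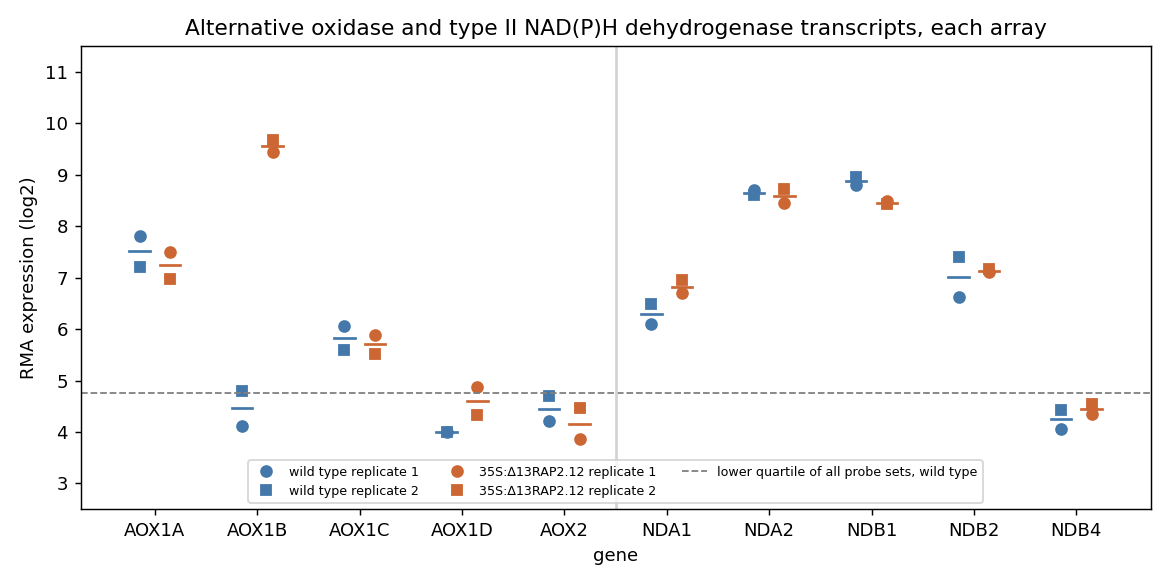
RMA expression (log2, y axis) of the 10 genes (x axis) on each array, wild type in blue and 35S:∆13RAP2.12 in orange, with replicate 1 as circles, replicate 2 as squares and group means as short lines. AOX1B stands near 4.5 in the wild type and near 9.6 on the other arrays, and levels should be read within a gene, since probe sets of different genes have no common scale.

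Among the oxidases, AOX1A (AT3G22370) encodes the isoform that is the main stress-inducible one in leaves. It read 7.80 and 7.21 on the wild-type arrays and 7.51 and 6.97 in arrays labelled 35S:∆13RAP2.12. The groups overlapped, and each group's 2 arrays lay further apart (0.59 and 0.53) than the group means did. The means were 7.51 ± 0.42 and 7.24 ± 0.38 (SD, n = 2 each), a difference of -0.27 (SE 0.29).

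AOX1B (AT3G22360) encodes a second oxidase of the AOX1 type, known mainly from reproductive tissues. Its levels were 4.13 and 4.79 in the wild type and 9.43 and 9.68 in arrays labelled 35S:∆13RAP2.12. The groups were 4.64 apart at their closest, against gaps of 0.67 and 0.25 between arrays of a group. The mean went from 4.46 ± 0.47 to 9.56 ± 0.18 (SD, n = 2 each), a difference of 5.10 (SE 0.26), or 34.2-fold. In the wild type this was percentile 22.0 of all probe sets, under their lower quartile of 4.76, where signal may be close to background, so the exact fold is not determined. On the arrays labelled 35S:∆13RAP2.12 the same probe set lay at percentile 72.8. The mean level over 4 flower markers was 4.49 and 4.88 on the wild-type arrays, with 4 of 4 differences below 0. In arrays labelled 35S:∆13RAP2.12 it was between 4.10 and 4.27. AP3, PI and SEP3 of these markers had means under the lower quartile in both groups, so they could show little. Whether the AOX1B signal came from reproductive tissue was not tested.

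AOX1B and AOX1A follow each other directly in the gene order of assembly TAIR10.1. The 5 genes with a probe set on each side of the pair were looked at after the AOX1B value had been seen. Of these 10 flanking genes 0 were called, with differences from -0.61 to 0.10. The next gene beyond AOX1B, AT3G22350, differed by 0.10 (SE 0.12, limma adjusted p = 0.764), and the next beyond AOX1A, the clock-associated gene TIC, by -0.01 (SE 0.11, adjusted p = 0.979). The flanking genes furthest from 0 were LOX5, a lipoxygenase, at -0.61 (SE 0.27, adjusted p = 0.387), and AT3G22415 at -0.53 (SE 0.11, adjusted p = 0.124). The probe sequences were not used here, so whether the AOX1A and AOX1B probe sets read each other's transcript was not tested.

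**Figure D2:**
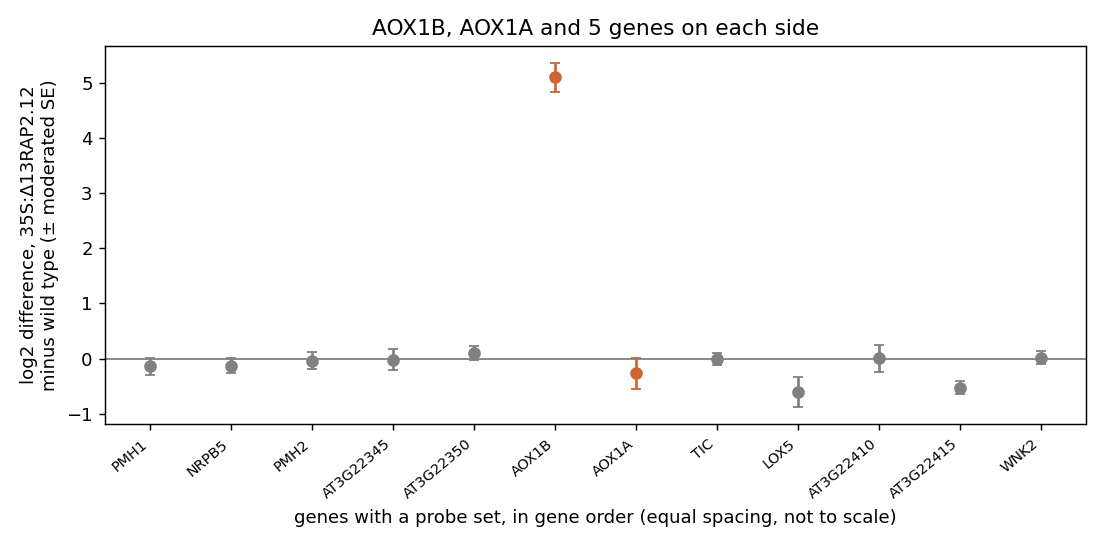
Log2 difference between the lines (y axis, ± moderated SE) for AOX1B, AOX1A (orange) and 5 genes with a probe set on each side (grey), in gene order with equal spacing. AOX1B stands at 5.10, AOX1A at -0.27 and the flanking genes between -0.61 and 0.10.

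AOX1C (AT3G27620), an isoform that is known to respond little to mitochondrial inhibitors, read 6.05 and 5.60 in the wild type. On the arrays labelled 35S:∆13RAP2.12 it read 5.89 and 5.51. The groups overlapped, with means of 5.83 ± 0.32 and 5.70 ± 0.27 and a difference of -0.12 (SE 0.22).

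AOX1D (AT1G32350), which is known to stand in for AOX1A in part where that gene is lost, had nearly equal wild-type values of 4.01 and 4.00. The arrays labelled 35S:∆13RAP2.12 gave 4.87 and 4.33, both above the wild type, by at least 0.32, with a gap of 0.54 between them. The difference was 0.60 (SE 0.21), the largest in size after AOX1B. In both groups the mean (4.00 and 4.60) was under the lower quartile of the array, which was 4.76 and 4.82, so this difference rests on weak signal.

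AOX2 (AT5G64210), the isoform of the second oxidase subfamily and known from seeds, read 4.21 and 4.70 in the wild type and 3.86 and 4.47 in arrays labelled 35S:∆13RAP2.12. It overlapped between groups and was also below the lower quartile in each, with a difference of -0.29 (SE 0.28). The 4 seed markers had a mean level between 4.48 and 4.55 on all 4 arrays.

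**Figure D3:**
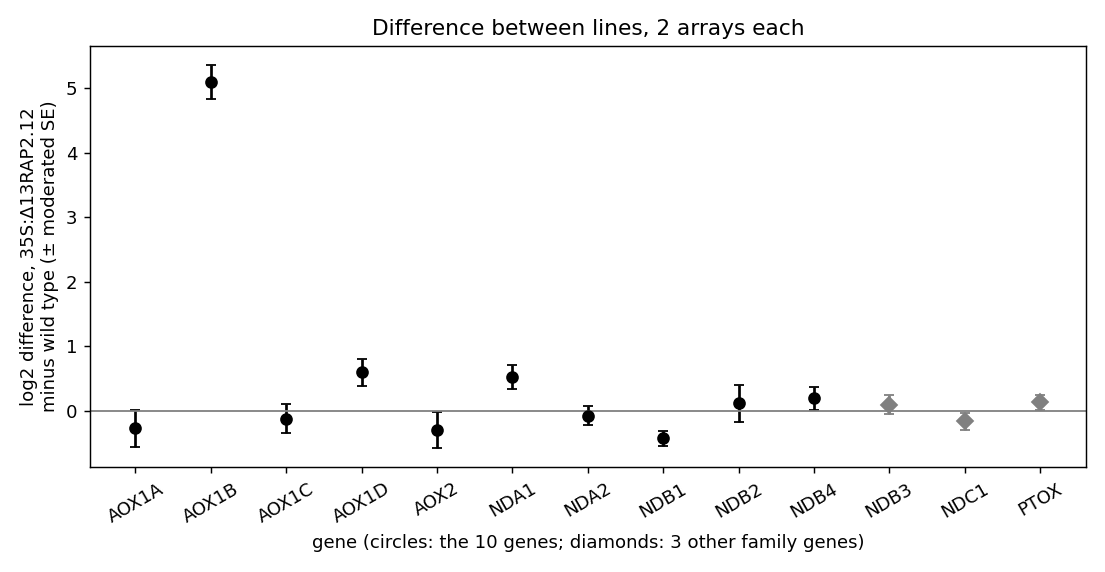
Log2 difference of the arrays labelled 35S:∆13RAP2.12 minus wild type (y axis, ± moderated SE, 2 arrays per group) for the 10 genes (circles) and for NDB3, NDC1 and PTOX (diamonds). AOX1B stands at 5.10, and all other points lie between -0.42 and 0.60.

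The dehydrogenases facing the matrix are encoded by NDA1 and NDA2. NDA1 (AT1G07180), whose transcript is known to depend on light, read 6.11 and 6.49 in the wild type and 6.69 and 6.95 in arrays labelled 35S:∆13RAP2.12. The groups did not overlap, but the 0.20 between them was smaller than the gap between arrays of either group (0.39 and 0.26). Its difference was 0.52 (SE 0.19), or 1.44-fold. NDA2 (AT2G29990) read 8.70 and 8.60 in the wild type and 8.45 and 8.71 on the other arrays, so that the wild-type values fell inside the range of the other group. Its difference was -0.07 (SE 0.15).

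The dehydrogenases facing outward are encoded by the NDB genes. NDB1 (AT4G28220), an NADPH dehydrogenase that depends on calcium, was the only 1 of the 5 listed dehydrogenases whose arrays labelled 35S:∆13RAP2.12 both lay below the wild type. It read 8.80 and 8.95 in the wild type and 8.48 and 8.43 in arrays labelled 35S:∆13RAP2.12, with no overlap. The difference was -0.42 (SE 0.12), or 1.34-fold lower, with 0.32 between the closest arrays of the 2 groups.

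NDB2 (AT4G05020), an NADH dehydrogenase that is known to be induced together with AOX1A under stress, read 6.63 and 7.40 in the wild type. The arrays labelled 35S:∆13RAP2.12 read 7.10 and 7.16, between the wild-type values. The wild-type gap of 0.77 was the widest within a group for any of the 10 genes, and the difference was 0.12 (SE 0.28).

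NDB4 (AT2G20800), an NADH dehydrogenase that does not need calcium, read 4.06 and 4.44 in the wild type and 4.35 and 4.55 in arrays labelled 35S:∆13RAP2.12. The groups overlapped at levels under the lower quartile, with a difference of 0.20 (SE 0.18). Over the 5 dehydrogenases 0 were called and the median difference was 0.12, with 2 of 5 at an unadjusted p below 0.05. Of all probe sets 2.17% were called and 16.2% had an unadjusted p below 0.05, with a median difference of -0.04. Nothing is read from the counts over the 5, since the list was made with this comparison known.

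With 1 array left out in turn, the sign held for AOX1B (4.76 to 5.43), AOX1D (0.33 to 0.87), NDA1 (0.33 to 0.72), NDB1 (-0.50 to -0.35) and NDB4 (0.01 to 0.39). It turned for AOX1A (-0.56 to 0.03), AOX1C (-0.35 to 0.10), AOX2 (-0.60 to 0.01), NDA2 (-0.21 to 0.06) and NDB2 (-0.27 to 0.50). AOX1B was no longer called without either wild-type array, and 0 probe sets in all were called by limma without wild type replicate 1, where 4340 had an unadjusted p below 0.05, and 29 were called without wild type replicate 2.

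**Figure D4:**
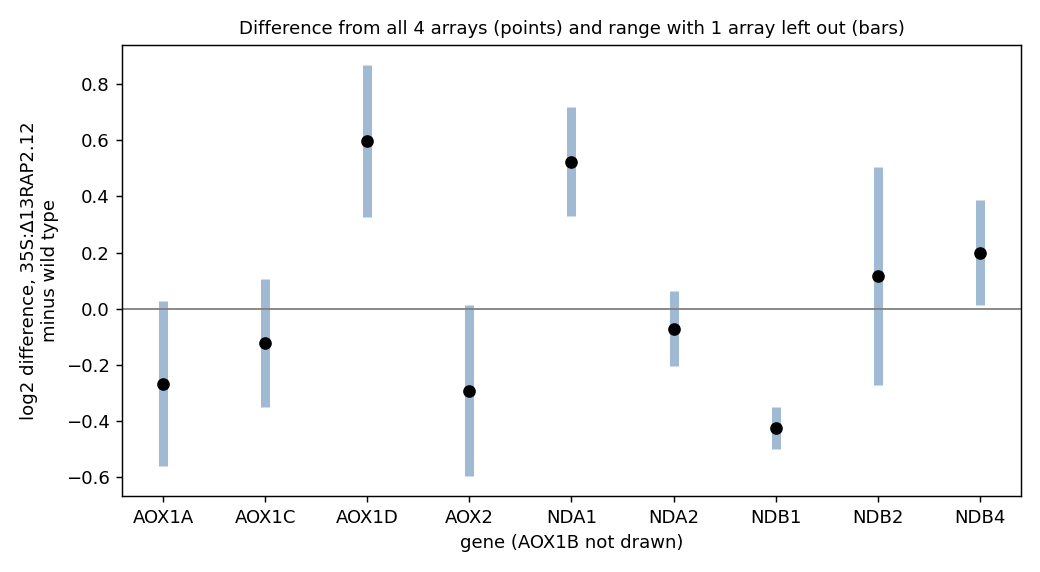
Log2 difference of the arrays labelled 35S:∆13RAP2.12 minus wild type (y axis) for 9 of the genes, from all 4 arrays (points) and as the range of values with 1 array left out (bars). AOX1B, at 4.76 to 5.43, is not drawn, and the bars of AOX1A, AOX1C, AOX2, NDA2 and NDB2 cross 0.

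The rest of the respiratory chain was read through 11 lists of 91 genes taken from knowledge of the field. These lists were drawn up with earlier results of these data known. Their counts and adjusted p are therefore a description and no independent test. Of these 91 genes, 3 were called higher and 0 lower, with a median difference of -0.05, and 17 had an unadjusted p below 0.05. Over all probe sets the median was -0.04, with 2.17% called and 16.2% at an unadjusted p below 0.05, so the pooled counts lie near the background. Single lists were unlike each other. An unadjusted p below 0.05 was found for 6 of 11 retrograde regulators and 3 of 8 mitochondrial stress targets, but for 3 of 44 genes of the cytochrome pathway. None of the 3 family genes outside the 10 was called or had an unadjusted p below 0.05. NDB3 (AT4G21490) differed by 0.10 (SE 0.15, limma adjusted p = 0.800), with every array below 4. NDC1 (AT5G08740), a dehydrogenase that is also found in plastids, differed by -0.16 (SE 0.13, adjusted p = 0.624). PTOX (AT4G22260), the plastid relative of the alternative oxidase that acts on plastoquinol, differed by 0.13 (SE 0.12, adjusted p = 0.656).

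Regulators and targets of the mitochondrial stress response held the 3 called genes. Of 11 retrograde regulators 2 were called higher: WRKY40, a transcription factor that acts on AOX1A as a repressor, went from 6.61 and 6.91 to 9.43 and 9.52 (difference 2.71, SE 0.15, limma adjusted p = 0.00614). WRKY63, known as an activator of AOX1A, went from 2.98 and 3.02 to 5.02 and 4.63 (difference 1.83, SE 0.17, adjusted p = 0.0200), with a wild-type mean under the lower quartile. The other 9 were not called. Among these, ANAC016 (0.76), ANAC053 (0.43), WRKY15 (0.45) and CDKE1 (-0.43) had an unadjusted p below 0.05, which makes 6 of 11 with the called genes. ANAC017 at -0.07 (adjusted p = 0.800) and ANAC013 at 0.26 (adjusted p = 0.392), membrane-bound factors that bind the AOX1A promoter, did not. Of 8 mitochondrial stress targets 1 was called, OM66, an outer-membrane ATPase, which went from 5.06 and 4.86 to 8.10 and 7.74 (difference 2.96, SE 0.18, adjusted p = 0.00659), and 3 of 8 had an unadjusted p below 0.05. The medians of these lists were 0.26 and 0.30, beside -0.04 over all probe sets. Of all probe sets, 2.17% were called and 16.2% had an unadjusted p below 0.05. All 3 calls were lost when either wild-type array was left out, and that of WRKY63 also without replicate 1 of the other group.

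Genes that work beside the oxidase and the dehydrogenases were not called. The shares over all probe sets were 2.17% called and 16.2% with an unadjusted p below 0.05. Of 6 uncoupling proteins and dicarboxylate carriers, 1 had an unadjusted p below 0.05. DIC2, which carries dicarboxylates across the inner membrane, had the smallest p (0.66, 95% interval 0.26 to 1.06, limma adjusted p = 0.142). Of 10 genes of other electron donors to ubiquinone, 3 had an unadjusted p below 0.05. AT5G38710 had the smallest p (0.95, 95% interval 0.46 to 1.43, adjusted p = 0.103). Of 9 genes for activation of the oxidase by thioredoxin, pyruvate supply and malic enzyme, AT4G05590 had the smallest p (-0.36, adjusted p = 0.276), as the only 1 with an unadjusted p below 0.05.

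The cytochrome pathway showed small differences. Of 44 genes for complexes I to IV, cytochrome c and the ATP synthase, 0 were called by limma, beside 2.17% of all probe sets. An unadjusted p below 0.05 was found for 3 of the 44, beside 16.2% of all probe sets, and the median difference was -0.07. Negative differences were the more common ones on these arrays, at 16014 of 27826 probe sets. In complex I, 11 of 13 genes had a negative difference (median -0.12), led by AT1G79010 at -0.71 (SE 0.12, adjusted p = 0.0797), which was called when the variance followed the level and with a filter on low signal. In complex II the median over 7 genes was 0.07, and SDH2-3 had the smallest p (0.27, adjusted p = 0.446). Among 8 genes of complex III and cytochrome c the median was -0.08, with AT5G25450 at 0.88 (adjusted p = 0.150). The 9 complex IV genes had a median of -0.03, with AT5G61310 at -0.36 (adjusted p = 0.524), and all 7 ATP synthase genes had a negative difference (median -0.15), with ATP3 at -0.20 (adjusted p = 0.530).

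**Figure D5:**
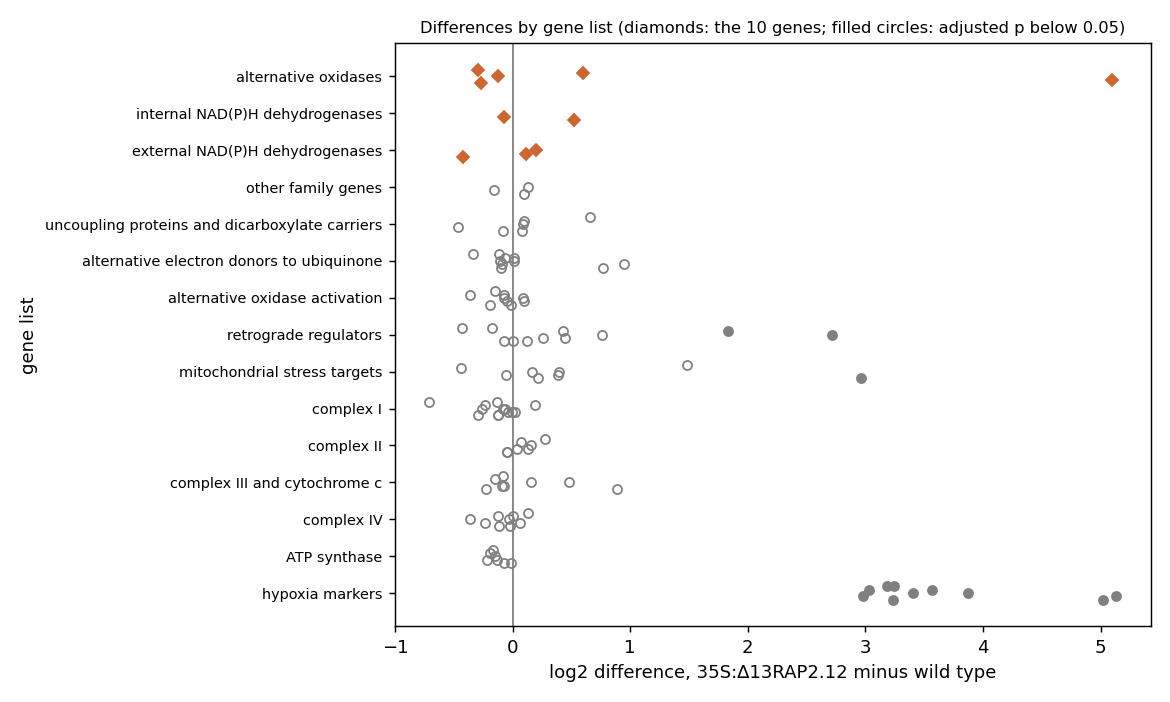
Log2 difference of the arrays labelled 35S:∆13RAP2.12 minus wild type (x axis) for every gene of each list (y axis), with the 10 genes as orange diamonds and other genes as circles that are filled where limma's adjusted p was below 0.05. AOX1B lies at 5.10 in the row of alternative oxidases, and the hypoxia markers lie in their own row at 2.98 to 5.13. The other 9 diamonds lie between -0.42 and 0.60, where most genes of the respiratory lists also lie.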

How the data were processed

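The authors deposited RMA expression values on the log2 scale, RMA per the submitters' processing notes and the scale per the range of the values. RMA corrects background, normalizes by quantiles and summarises probe sets. The sources used here do not give software, probe set definition or genome build, and detection calls were not used. All 4 value columns were used and 0 were left aside. Names and gene order came from a gene table of assembly TAIR10.1, which matched 27241 of 27826 loci and all 10 members.

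Without further filter or normalization, limma 3.58.1 in R 4.3.3 (lmFit, eBayes, no covariates; residual df 2, prior df 2.55) compared the groups, with Benjamini-Hochberg adjustment. It was also run on simulated data with large known changes, which says nothing of differences as small as most of those seen here. The number of arrays limits precision: SEs of the 10 genes were 0.12 to 0.29. The 10 genes, the lists and the alternatives were chosen with earlier results of these data known. Named were the 10 genes, NDB3, NDC1, PTOX, RAP2.12, hypoxia markers and, per list, up to 3 called genes with the largest change, or the gene with the smallest p. ANAC013, ANAC016, ANAC017, ANAC053, WRKY15, CDKE1 and the flanking genes, as well as markers other than PSBO1, AG, SESA3 and PYK10, were named outside this rule. Alternatives were repeated quantile normalization, median centring, a low-signal filter (below the 25th percentile), an intensity trend, robust eBayes, a replicate block, each array left out, and an adjusted p of 0.10. No sequences were printed, since none were used here. Figures used matplotlib 3.10.9.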

Additional observations from a re-analysis of the deposited data

How the results depend on the processing

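The list of 10 genes was made with this comparison known, so calls among them are a description and no test. AOX1B was the only 1 of the 10 genes called in any fit. It was called in all alternatives with 4 arrays and without either array labelled 35S:∆13RAP2.12, and in 0 of the fits that left out a wild-type array, so the count of called members ranged from 0 to 1 with 1 array left out (2 or 3 members had an unadjusted p below 0.05 in these fits). Where 1 array is left out, the lone array of its group is assumed to vary like the other group. Over all probe sets, limma called 603, and 1759 with an intensity trend, 1203 at an adjusted p below 0.10, and 0 to 315 with 1 array left out. Called genes of the other respiratory lists numbered 3, and 0 to 4 with 1 array left out. The median difference of the 10 genes was 0.02, and 0.02 to 0.17 with 1 array left out. It was -0.01 after repeated quantile normalization, -0.0041 after median centring and -0.07 with the low-signal filter. That filter kept 7 of the 10 genes, without AOX1D, AOX2 and NDB4. The filter went by the mean of all 4 arrays. AOX1B, whose wild-type mean of 4.46 was under the lower quartile of 4.76, passed through its level on the arrays labelled 35S:∆13RAP2.12. Its call under the filter is therefore no further support. Same-numbered arrays did not deviate together over all probe sets (r = 0.03), which does not settle whether they were grown or processed together. Among the 10 genes, NDA2 and NDB1 moved opposite ways from replicate 1 to replicate 2 in the 2 groups. The others moved the same way. The main fit used no pairing. With the replicate block, 515 probe sets, 1 of the 10 genes and 3 other respiratory genes were called. How far a probe set's signal stood above background is not known, which limits AOX1B in the wild type and AOX1D, AOX2 and NDB4 in both groups.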
